A study of Mus musculus with 9 samples.

Results

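Expression of 10 genes of the erythropoietin receptor pathway was followed in sorted mouse erythroblasts: the receptor Epor, its kinase Jak2, the transcription factors Stat5a, Stat5b and Stat3, the kinase Lyn, the phosphatase Ptpn6, and the kinases Pim1, Pim2 and Pim3. All non-control probes whose RefSeq accession maps to these 10 symbols were taken, which gave 12 of the 55681 probes on the array, with a pair each for Stat5b and Stat3 and 1 for each other gene. All 10 genes were bright enough to be tested, among 14504 genes tested in all. No measured value entered the choice of these 12 probes, but where a gene had a pair, the brighter probe stood for it in the fit over genes, and both are described.

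Expression was measured on 9 single-colour arrays of subset II erythroblasts, nucleated red cell precursors that were sorted from marrow. The mice were wild-type C57BL/6J and carry the label female. There were 3 arrays of mice kept for 7 weeks on a low iron diet begun at weaning, 3 arrays of mice kept for 3 weeks on it, and 3 arrays of mice on normal diet. The submitters describe the 3 samples of a group as biological replicates, but whether each came from 1 animal or a pool, how subset II was gated, and the age of the normal diet mice are not given in the sources used here. The series concerns iron deficiency anemia, and the comparisons set each duration of the diet against normal diet and the 2 durations against each other.

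Erythropoietin, the hormone that rises in anemia, binds Epor on late progenitors and early erythroblasts and brings together the Jak2 molecules bound to the receptor's tail. Jak2 phosphorylates the receptor, Stat5a and Stat5b dock there, are phosphorylated, and move to the nucleus, where they raise genes for survival (Bcl2l1, Pim1) and for feedback inhibition (Cish, the Socs genes). Ptpn6 docks on the same receptor and switches Jak2 off, Lyn is a Src family kinase that also acts below Epor, and Stat3 is the transcription factor best known for interleukin 6 signalling. The arrays measured transcripts, not phosphorylation.

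Each level below is the log2 of a probe's background-subtracted signal minus the log2 of its array's 75th percentile of signal, so 0 means a spot as bright as that percentile. Levels of different probes are not comparable with each other. A difference is called when its limma p-value, adjusted by the Benjamini-Hochberg method over all genes tested, is under 0.05, and each standard error (SE) rests on 3 arrays per group. In sorted cell RNA, fewer cells of a type and less RNA per cell cannot be told apart.

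Several features of the arrays bear on every result. The share of spots well above background was 45.2% to 53.6% on a 7 week array, 56.8% to 70.8% on a 3 week array and 65.5% to 66.3% on a normal diet array, and the 75th percentile of signal was 791.7 to 1087 at 7 weeks, 1677 to 1837 at 3 weeks and 1499 to 1616 on normal diet. The mean log2 signal of the spike-in control spots stood 4.44 to 5.35 above that percentile on the 7 week arrays. It stood 1.10 to 1.57 above at 3 weeks and 0.50 to 1.74 on normal diet. Replicates resembled each other least at 7 weeks, with correlation coefficients between 0.909 and 0.958. These were 0.976 to 0.980 among the 3 week arrays and 0.981 to 0.987 among the normal diet arrays. Each group lay on its own slide and scan, so slide, scan and diet cannot be told apart. Normal diet replicates 1 and 2 went against the label female: the Y-linked gene Eif2s3y stood at 5.12 and 4.82 there, and the female-specific Xist at -6.73 and -4.82 with its first probe, against an Eif2s3y level of -3.77 or lower on the other 7 arrays and an Xist level of -2.06 or higher. For the genes from Epor to Pim3 named at the outset, each called difference from normal diet is therefore also given without these 2 arrays. That fit leaves 1 normal diet array and takes its spread from the other groups. Of the other pathway genes and the marker genes described below, only Socs3 at 7 weeks has its difference given in this way.

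In erythroblasts of mice on low iron diet for 7 weeks, 4 of the 10 genes differed from normal diet: Jak2 and Stat5a fell, and Stat5b and Stat3 rose. The background was 29.5% of all genes called in this comparison (10.7% higher, 18.7% lower), so 4 of 10 is near it. After 3 weeks, Pim2 and Pim3 rose and none fell, against a background of 11.4% (3.52% higher, 7.88% lower). Between 7 and 3 weeks, Stat5b and Stat3 were higher and Pim2 lower at 7 weeks, against a background of 37.2% (17.5% higher, 19.6% lower). The median log2 difference of the 10 genes was -0.06 for 7 weeks against normal diet, -0.06 for 3 weeks against normal diet and -0.62 for 7 against 3 weeks, beside -0.27, -0.17 and -0.13 over all genes in the same comparisons.

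Groups that did not overlap were common among all genes. At 7 weeks against normal diet, 2 of the 10 genes lay wholly above and 3 wholly below, against 47.4% of all genes that did not overlap (18.1% above, 29.4% below). At 3 weeks 3 lay above and 2 below, against 49.5% (18% above, 31.6% below), and at 7 against 3 weeks 2 lay above and 5 below, against 48.4% (23.2% above, 25.2% below). In a fit over single probes, 4 of the 12 probes were called at 7 weeks and 3 at 3 weeks against normal diet, and 3 at 7 against 3 weeks, with backgrounds of 30.3%, 13.2% and 39.6% of all probes.

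**Figure D1:**
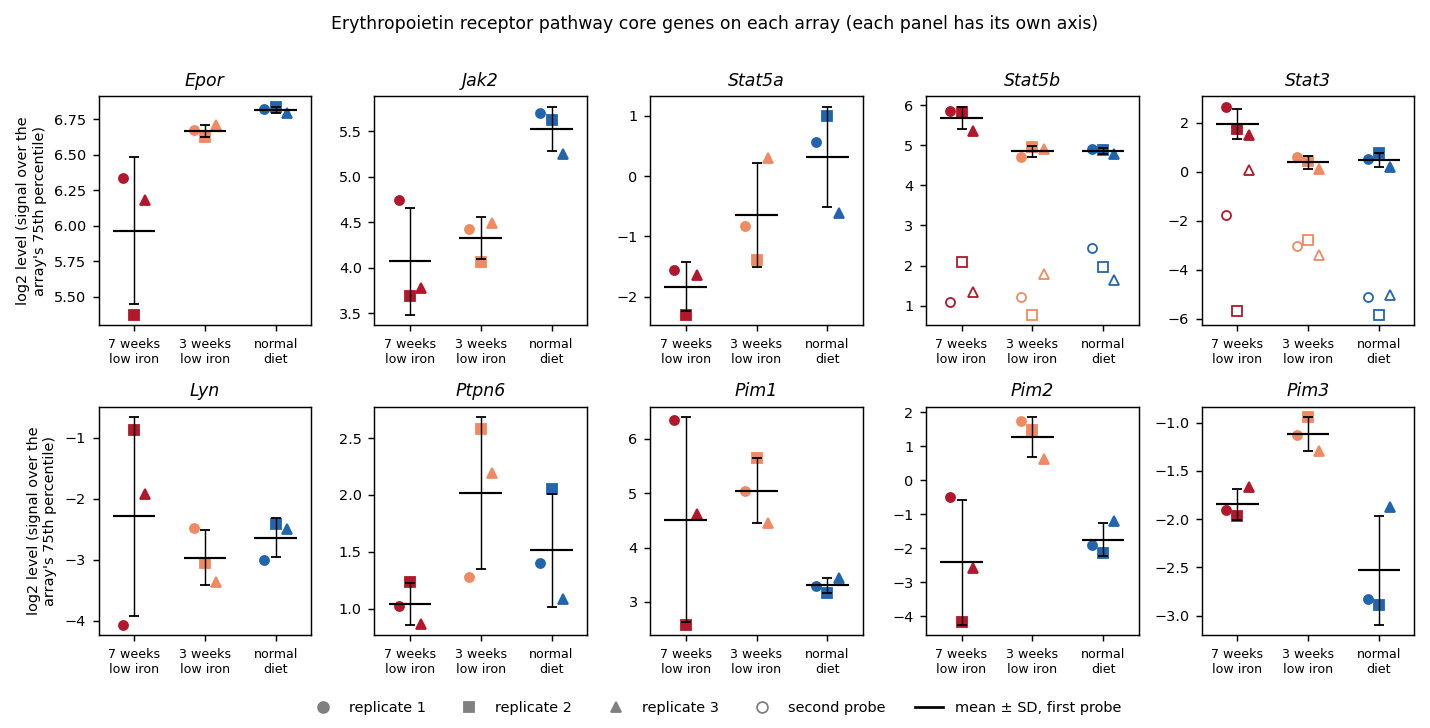
Log2 level of each gene on each of the 9 arrays (y axis, log2 signal over the array's 75th percentile, with an axis of its own in each panel), by diet group on the x axis; filled points are single arrays, the bar is the mean ± SD of 3 arrays, and open points are the second probe of Stat5b and Stat3. Jak2 lay between 3.69 and 4.75 on the 7 week arrays and between 5.25 and 5.70 on normal diet, and Pim2 was at 0.62 or above only on the 3 week arrays.

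**Figure D2:**
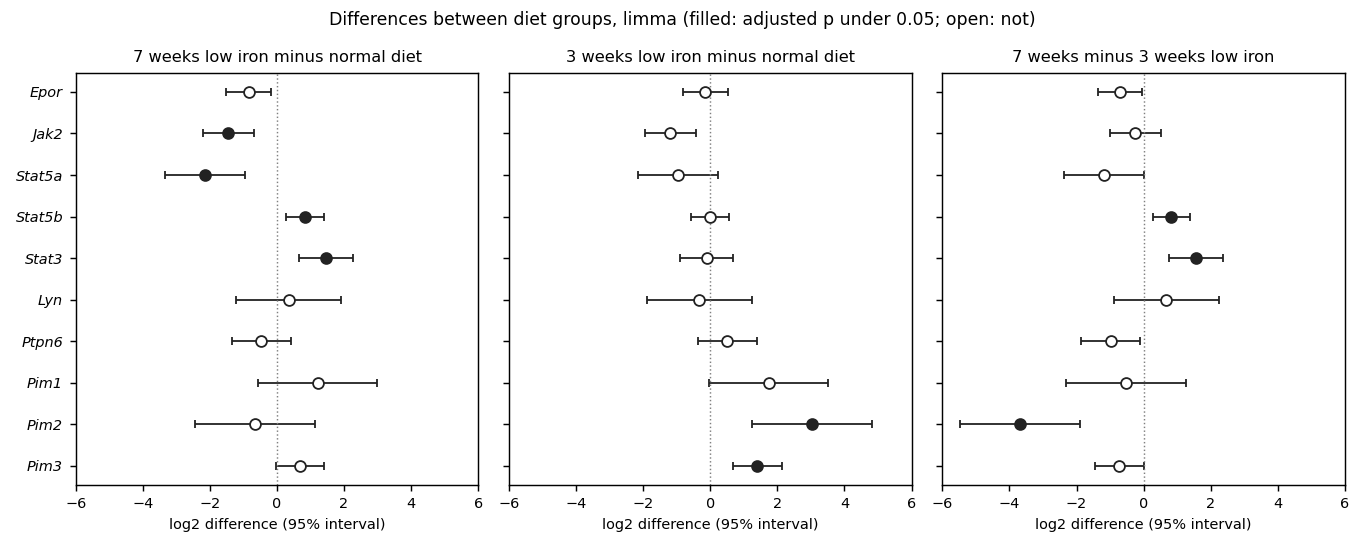
Log2 difference of each gene between diet groups with its 95% interval from limma (x axis), for 7 weeks minus normal diet, 3 weeks minus normal diet and 7 weeks minus 3 weeks of low iron diet; filled points have an adjusted p under 0.05. The 9 filled points are Jak2, Stat5a, Stat5b and Stat3 on the left, Pim2 and Pim3 in the middle, and Stat5b, Stat3 and Pim2 on the right.

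Epor, the receptor itself, had levels of 6.34, 5.37 and 6.18 on the 7 week arrays (replicates 1, 2 and 3), 6.67, 6.62 and 6.71 on the 3 week arrays, and 6.82, 6.84 and 6.79 on the normal diet arrays. The order of the groups was 7 weeks, 3 weeks, normal diet from low to high, and none of the 3 groups overlapped another, but none of the differences passed the test. Epor was -0.85 ± 0.30 (SE) at 7 weeks against normal diet, with an adjusted p of 0.0566 from limma and a 95% interval of -1.52 to -0.19. It was -0.70 ± 0.30 at 7 against 3 weeks (adjusted p = 0.0895) and -0.15 ± 0.30 at 3 weeks against normal diet (adjusted p = 0.772). Quantile normalization, no scaling, another background correction, the stricter brightness filter and the authors' own table each brought the 7 week difference past the threshold. Their values lay between -1.66 and -0.85. Of the 11 alternatives other than leaving out a single array, 6 did not call it, and values over the 11 ran from -1.66 to -0.49. With single arrays left out, 8 of 9 fits did not call it. The Epor spots were among the bright ones, at 7.16% of the saturation value at 7 weeks, 22.7% at 3 weeks and 22.6% on normal diet, and no spot was marked as saturated.

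The Epor promoter window of RefSeq (GRCm38.p6, chr9:21963527-21963826, minus strand, 250 bases before to 50 from the start on, written 5′ to 3′ along the gene) is shown because it is the only one of the members' windows with the letters of the erythroid GATA motif AGATAA. Capitals mark the match, which reads TTATCT since it lies on the opposite strand.
Epor: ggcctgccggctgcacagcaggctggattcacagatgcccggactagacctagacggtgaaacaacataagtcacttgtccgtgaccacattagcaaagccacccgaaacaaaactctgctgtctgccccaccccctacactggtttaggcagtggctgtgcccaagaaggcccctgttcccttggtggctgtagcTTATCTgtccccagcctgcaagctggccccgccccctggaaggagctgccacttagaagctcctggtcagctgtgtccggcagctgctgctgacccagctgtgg
RefSeq windows were found for 9 of the 10 genes, 12 windows in all, and Lyn had none in the table. On both strands, AGATAA was found in the Epor window and in none of the other 11, against 11.178% of 32851 mouse promoter windows of the same length. The other GATA form TGATAA was in 0 of the 12 windows, against 9.053% of all, and the motif of STAT dimers, TTCNNNGAA, in 0 of the 12, against 8.298% of all. The match overlapped neither of the other motifs.

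Jak2, the kinase bound to the receptor, had levels of 4.75, 3.69 and 3.78 on the 7 week arrays, 4.43, 4.07 and 4.49 on the 3 week arrays, and 5.70, 5.63 and 5.25 on the normal diet arrays. Each low iron array lay below each normal diet array, and the low iron groups overlapped each other. Jak2 fell by 1.45 ± 0.34 on the log2 scale at 7 weeks against normal diet, 2.73-fold lower, with a limma adjusted p of 0.0143. Without normal diet replicates 1 and 2 the difference was -1.17 with an adjusted p of 0.271. At 3 weeks the difference from normal diet was -1.20 ± 0.34 and just missed the threshold in the gene-level fit (adjusted p = 0.0514), while the fit over single probes put the same probe at 0.0464. Between 7 and 3 weeks Jak2 differed by -0.25 ± 0.34 (adjusted p = 0.584).

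The signal transducers Stat5a and Stat5b, near-identical factors that act together below Epor, were called in opposite directions at 7 weeks, which for Stat5b held with its brighter probe and the scaling used, but not with its other probe. Stat5a had levels of -1.55, -2.30 and -1.64 on the 7 week arrays, -0.82, -1.40 and 0.30 on the 3 week arrays, and 0.57, 0.99 and -0.61 on the normal diet arrays. The 7 week arrays lay below all others, while the 3 week and normal diet arrays overlapped. Stat5a fell by 2.15 ± 0.53 at 7 weeks against normal diet, 4.43-fold lower (limma adjusted p = 0.0175). It was -0.96 ± 0.53 at 3 weeks against normal diet (adjusted p = 0.259) and -1.19 ± 0.53 at 7 against 3 weeks (adjusted p = 0.106), neither past the threshold. Without normal diet replicates 1 and 2, the higher of the 3 for Stat5a, its 7 week difference was -1.22 with an adjusted p of 0.357.

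Stat5b, with the brighter of its probes, had levels of 5.85, 5.84 and 5.36 on the 7 week arrays, 4.70, 4.95 and 4.90 on the 3 week arrays, and 4.90, 4.88 and 4.77 on the normal diet arrays. All 7 week arrays lay above the other 6, which overlapped. Stat5b rose by 0.83 ± 0.25 at 7 weeks against normal diet, 1.78-fold (limma adjusted p = 0.0351), and by 0.83 ± 0.25 at 7 against 3 weeks (adjusted p = 0.0280). At 3 weeks against normal diet the difference was -0.00 ± 0.25, with a 95% interval of -0.56 to 0.56.

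The rise of Stat5b rested on the scaling and on 1 of its probes. Before scaling, its mean log2 signal was 15.48 at 7 weeks, 15.62 at 3 weeks and 15.46 on normal diet, a difference of 0.03 at 7 weeks against normal diet and -0.13 at 7 against 3 weeks, while the median over all genes was -1.07 and -1.09. So the spot kept its brightness on arrays where most spots were dimmer. The second Stat5b probe, at 1.10, 2.09 and 1.35 at 7 weeks, 1.23, 0.78 and 1.80 at 3 weeks, and 2.44, 1.97 and 1.65 on normal diet, had overlapping groups and a 7 week difference of -0.51 ± 0.38 (limma adjusted p over all probes = 0.333). The mean of both probes gave 0.16 at 7 weeks against normal diet (adjusted p = 0.689), and without normal diet replicates 1 and 2 the brighter probe gave 0.91 (adjusted p = 0.277).

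Stat3 had levels of 2.64, 1.72 and 1.47 on the 7 week arrays, 0.60, 0.45 and 0.09 on the 3 week arrays, and 0.51, 0.77 and 0.20 on the normal diet arrays with its brighter probe. The 7 week arrays again lay above all others, and the 3 week and normal diet arrays overlapped. Stat3 rose by 1.45 ± 0.35 at 7 weeks against normal diet, 2.74-fold (limma adjusted p = 0.0168), and by 1.56 ± 0.35 at 7 against 3 weeks (adjusted p = 0.00886), and was -0.11 ± 0.35 at 3 weeks against normal diet (adjusted p = 0.865).

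Its second probe, much dimmer, read -1.75, -5.69 and 0.05 at 7 weeks, -3.04, -2.80 and -3.38 at 3 weeks, and -5.12, -5.83 and -5.04 on normal diet, and was not well above background on 7 week replicate 2 and normal diet replicate 2. It differed by 2.87 ± 1.16 at 7 weeks against normal diet (limma adjusted p over all probes = 0.0906). Without scaling, the brighter probe's 7 week difference from normal diet was 0.65 (adjusted p = 0.118) and that from 3 weeks 0.60 (adjusted p = 0.138). Without normal diet replicates 1 and 2, the 7 week difference from normal diet was 1.75 (adjusted p = 0.158).

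Stat5b, Stat5a and Stat3 are neighbours on mouse chromosome 11 in the RefSeq annotation of GRCm38.p6. A ratio of 2 genes on the same array does not move when the array is scaled by a single factor, and the pairs given here were chosen after the values were seen and carry no test. Relative to its normal diet mean, the log2 ratio of Stat5b to Stat5a was 2.87, 3.60 and 2.47 on the 7 week arrays, 0.99, 1.81 and 0.07 on the 3 week arrays, and -0.20, -0.65 and 0.85 on the normal diet arrays. With the second Stat5b probe it was 0.95 to 2.68 at 7 weeks, -0.20 to 0.47 at 3 weeks and -0.72 to 0.56 on normal diet. With both probes, each 7 week array lay above each of the others, so the Stat5b signal was higher relative to Stat5a at 7 weeks with either probe.

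The ratio of Stat3 to Stat5a was 2.94 to 4.02 at 7 weeks, -0.38 to 1.67 at 3 weeks and -0.40 to 0.63 on normal diet. The ratio of Epor to Jak2, receptor to kinase, was 0.30 to 1.11 at 7 weeks, 0.93 to 1.27 at 3 weeks and -0.17 to 0.25 on normal diet. Both low iron groups lay above normal diet for this last ratio, so the Jak2 signal was lower relative to the Epor signal on every low iron array.

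**Figure D3:**
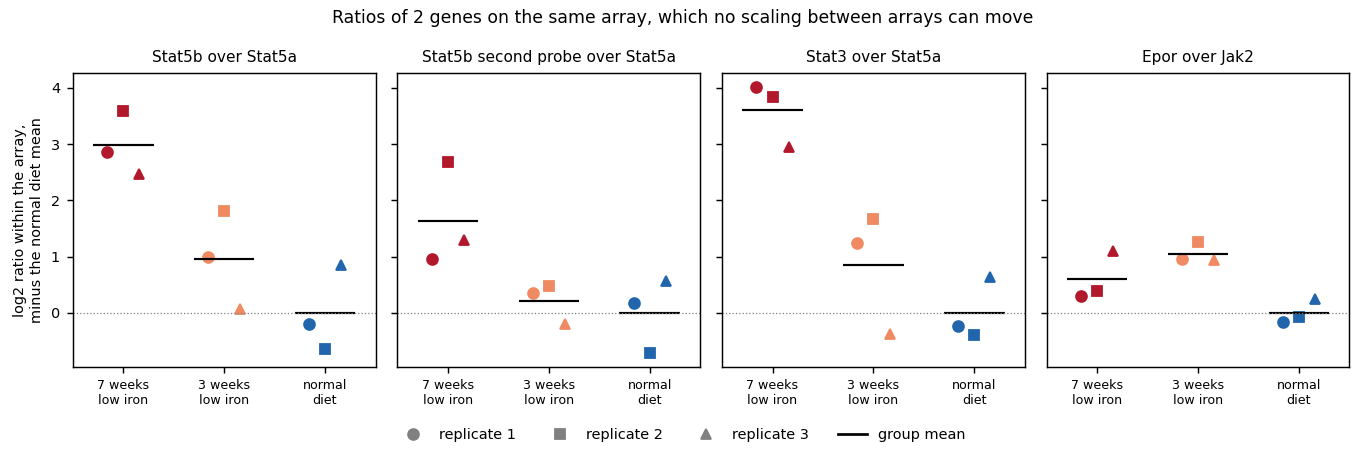
Log2 ratio of 2 genes on the same array minus its normal diet mean (y axis), by diet group (x axis); points are single arrays and bars group means. The 7 week arrays stand at 2.47 or higher for Stat5b over Stat5a and at 2.94 or higher for Stat3 over Stat5a, and all low iron arrays stand at 0.30 or higher for Epor over Jak2.

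A promoter window of Stat5a (GRCm38.p6, chr11:100860234-100860533, plus strand) and of Stat5b (GRCm38.p6, chr11:100822521-100822820, minus strand), both from RefSeq and written 5′ to 3′ along the gene, are shown because these paralogs share a stretch near the start site. Capitals mark the best shared ungapped stretch of 65 bases, of which 58 are identical (89.2%).
Stat5a: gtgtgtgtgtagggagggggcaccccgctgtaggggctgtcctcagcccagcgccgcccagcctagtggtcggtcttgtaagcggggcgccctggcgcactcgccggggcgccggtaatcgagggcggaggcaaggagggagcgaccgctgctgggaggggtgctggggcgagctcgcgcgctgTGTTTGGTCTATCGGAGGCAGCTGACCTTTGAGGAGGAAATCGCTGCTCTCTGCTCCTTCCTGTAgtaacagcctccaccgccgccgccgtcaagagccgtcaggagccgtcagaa
Stat5b: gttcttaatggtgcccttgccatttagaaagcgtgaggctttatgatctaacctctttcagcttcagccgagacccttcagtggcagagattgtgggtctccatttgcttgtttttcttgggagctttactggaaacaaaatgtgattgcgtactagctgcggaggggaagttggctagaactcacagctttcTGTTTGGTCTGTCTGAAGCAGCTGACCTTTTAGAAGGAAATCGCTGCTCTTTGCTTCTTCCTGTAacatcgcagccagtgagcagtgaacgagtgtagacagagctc
The table holds another window for each gene. Whether the array probes of Stat5a and Stat5b also bind the other gene's transcript was not tested, because no probe sequences were used here.

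Lyn, the Src family kinase, was dim, at -4.07, -0.87 and -1.92 on the 7 week arrays, -2.48, -3.05 and -3.37 on the 3 week arrays, and -3.01, -2.41 and -2.49 on the normal diet arrays. It was not well above background on 7 week replicate 1, and the 3 groups overlapped. Its differences were 0.35 ± 0.69 at 7 weeks and -0.33 ± 0.69 at 3 weeks against normal diet, with limma adjusted p of 0.725 and 0.787. The 95% interval at 7 weeks ran from -1.21 to 1.91.

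Ptpn6, the phosphatase that switches Jak2 off, had levels of 1.02, 1.23 and 0.87 at 7 weeks, 1.28, 2.58 and 2.19 at 3 weeks, and 1.40, 2.05 and 1.08 on normal diet. The 7 week arrays lay below the 3 week ones and overlapped normal diet. The difference of -0.98 ± 0.39 at 7 against 3 weeks did not pass the threshold (limma adjusted p = 0.0779), nor did -0.47 ± 0.39 at 7 weeks (adjusted p = 0.382) or 0.51 ± 0.39 at 3 weeks (adjusted p = 0.421) against normal diet.

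The Pim kinases promote survival and growth downstream of Stat5. Pim1, the best known Stat5 target of the 3, had levels of 6.35, 2.58 and 4.61 on the 7 week arrays, 5.04, 5.64 and 4.45 on the 3 week arrays, and 3.30, 3.16 and 3.45 on the normal diet arrays. All 3 week arrays lay above normal diet, while the 7 week arrays spread over 3.78 log2 units, the whole range of the gene. The difference of 1.74 ± 0.79 at 3 weeks against normal diet did not pass the threshold (limma adjusted p = 0.177), and passed it when only the arrays of these 2 groups were fitted (adjusted p = 0.00931) or when 7 week replicate 1 or 2 was left out (adjusted p = 0.0407 and 0.0484). The 7 week difference from normal diet was 1.21 ± 0.79 (adjusted p = 0.266).

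Pim2 had levels of -0.49, -4.16 and -2.59 on the 7 week arrays, 1.74, 1.47 and 0.62 on the 3 week arrays, and -1.90, -2.15 and -1.19 on the normal diet arrays. The 3 week arrays lay above all others, and the 7 week arrays, of which replicate 2 was not well above background, overlapped normal diet. Pim2 rose by 3.02 ± 0.79 at 3 weeks against normal diet, 8.12-fold (limma adjusted p = 0.0413). It was lower by 3.69 ± 0.79 at 7 than at 3 weeks, 12.9-fold (adjusted p = 0.00697), a difference called in each of the 19 alternatives that could be fitted. At 7 weeks against normal diet it was -0.67 ± 0.79 (adjusted p = 0.544). Pim2 is X-linked, and without normal diet replicates 1 and 2 its 3 week difference from normal diet was 2.47 (adjusted p = 0.519).

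Pim3 had levels of -1.91, -1.97 and -1.66 on the 7 week arrays, -1.13, -0.94 and -1.30 on the 3 week arrays, and -2.82, -2.89 and -1.88 on the normal diet arrays. It rose by 1.41 ± 0.32 at 3 weeks against normal diet, 2.65-fold (limma adjusted p = 0.0275), and the 3 week arrays lay above all others. The third normal diet array lay within the 7 week range, and neither 0.68 ± 0.32 at 7 weeks against normal diet (adjusted p = 0.133) nor -0.72 ± 0.32 at 7 against 3 weeks (adjusted p = 0.105) passed. Without normal diet replicates 1 and 2 the 3 week difference from normal diet was 0.76 (adjusted p = 0.549).

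**Figure D4:**
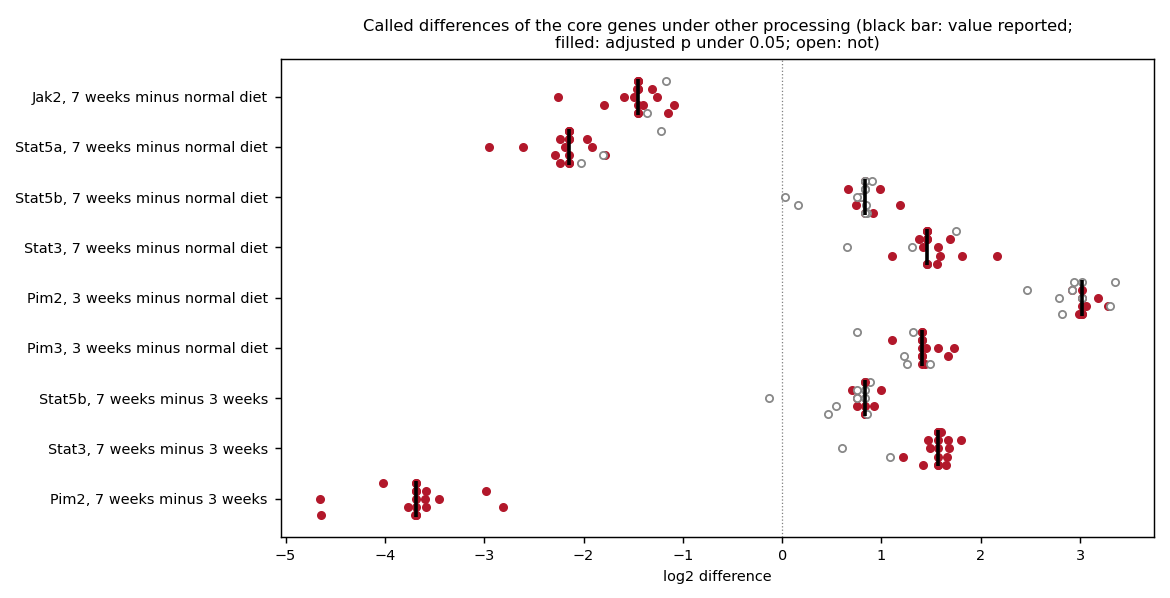
Log2 difference (x axis) of the 9 called differences of the 10 genes (y axis) under each other processing setting or with arrays left out; the black bar is the reported value. Pim2 at 7 against 3 weeks stayed called in all 19 alternatives that could be fitted. Only Stat5b at 7 against 3 weeks changed sign, to -0.13 without scaling, against 0.83 as reported.

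Some markers of other marrow cells also differed between the groups. Beside the counts below, 3.52% of all genes were called higher and 7.88% lower at 3 weeks against normal diet. At 7 weeks these shares were 10.7% and 18.7%. The summed signal of 7 monocyte and macrophage markers on the array, of 9 listed, was 11.3 to 14.6 times the 75th percentile at 7 weeks, 49.4 to 72.3 at 3 weeks and 27.3 to 40.7 on normal diet, and all 7 were well above background on every array. At 3 weeks against normal diet 3 of the 7 rose and none fell: Lyz2, Cd14 and C1qa, with log2 differences of 3.59, 1.92 and 1.38, while Adgre1 (0.34), Vcam1 (0.26), Csf1r (-0.27) and Cx3cr1 (-0.41) did not pass. At 7 weeks 3 of the 7 fell and none rose: Vcam1 (-1.99), Adgre1 (-1.75) and C1qa (-1.04). The 8 B lineage markers summed to 3.54 to 10.03 at 7 weeks, 9.32 to 22.6 at 3 weeks and 4.35 to 7.11 on normal diet, and of 7 tested, 2 rose at 3 weeks, and 1 rose and 1 fell at 7 weeks. The 10 neutrophil lineage markers summed to 550 to 823 at 7 weeks, 431 to 569 at 3 weeks and 447 to 846 on normal diet. Mmp9 (3.52) and Ngp (2.98) were called higher at 3 weeks, Elane (2.60) at 7 weeks, and none was called lower. The uncalled ones went both ways. At 3 weeks these were Prtn3 (1.95), Ltf (1.56), Elane (1.16), Mpo (0.23), Camp (-0.02), S100a9 (-0.68), Csf3r (-0.75) and S100a8 (-1.01). At 7 weeks they were S100a9 (1.01), S100a8 (0.15), Prtn3 (0.09), Ltf (-0.03), Csf3r (-0.09), Camp (-0.28), Ngp (-0.36), Mmp9 (-0.52) and Mpo (-2.88). The 7 mast cell, basophil and eosinophil markers summed to 0.556 to 0.723 at 7 weeks. They summed to 0.590 to 24.4 at 3 weeks and 13.3 to 23.8 on normal diet. Of 5 tested, Prg2 (-7.36) and Epx (-4.01) fell at 7 weeks and none was called at 3 weeks. Prg2 was not well above background on 7 week replicate 2 (-5.68), and its 3 week arrays ran from -1.55 to 4.37. Epx was well above background throughout only on normal diet, through which it entered the test, so its call carries that choice. It was well above background on no 7 week array, so its value of -4.01 is not a measured fold. The 8 erythroid markers summed to 2430 to 3810 at 7 weeks, 1571 to 1696 at 3 weeks and 1806 to 1919 on normal diet, and all were well above background on every array. The part of other cells in these differences was not tested.

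Each gene's closest neighbours in pattern were the 2 genes with the smallest root mean square (RMS) difference over the 9 arrays after centring. Epor was followed most closely by Kcmf1 (RMS 0.081) and Popdc2 (0.124), Jak2 by Hps5 (0.103) and Vgll2 (0.166), and Stat5b by Pitx3 (0.105) and Gnat2 (0.132). Stat3 was followed by Myo18b (0.157) and Igdcc3 (0.159), Stat5a by Psen2 (0.291) and Art3 (0.381), and Ptpn6 by Chst15 (0.187) and Nadk (0.190). Lyn was closest to Mtdh (0.332) and Slc37a3 (0.371), Pim1 to 1700094D03Rik (0.249) and Sertad1 (0.336), Pim2 to Anks3 (0.462) and Btg1c (0.499), and Pim3 to Map2k3os (0.242) and Cd38 (0.262). Among the members themselves, the closest pairs were Stat3 with Stat5b (RMS 0.442) and Epor with Jak2 (0.497).

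The rest of the pathway was followed in 6 lists of 80 genes, 75 of them tested. Against normal diet, 13 were higher and 8 lower at 7 weeks, and 10 higher and 5 lower at 3 weeks, and between 7 and 3 weeks 12 were higher and 17 lower. That is 28% of the 75 at 7 weeks, 20% at 3 weeks and 38.7% between the times, beside 29.5%, 11.4% and 37.2% of all genes in the same comparisons. The median log2 difference of the 75 was -0.09 at 7 weeks and 0.56 at 3 weeks against normal diet, beside -0.27 and -0.17 over all genes. The balance moved with the scaling. Without scaling, 10 were higher and 23 lower at 7 weeks, 9 higher and 0 lower at 3 weeks, and 5 higher and 30 lower at 7 against 3 weeks. With the percentile over detected probes, the same counts were 17 and 3, 10 and 3, and 12 and 14, and with quantile normalization 12 and 6, 8 and 3, and 10 and 16. No called gene of the lists changed sign under any of the 3 other scalings. Without normal diet replicates 1 and 2, 0 of the 75 were called against normal diet at either time with limma. Of the named genes called here, Tyk2, Stat4 and Vegfa were well above background on all 3 arrays only in the group where they were highest, through which they entered the test, so their calls and their part in these counts carry that choice.

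Of 14 Stat5 response genes tested, 6 were higher and 0 lower at 7 weeks against normal diet, 4 higher and 1 lower at 3 weeks, and 7 higher and 1 lower at 7 against 3 weeks, with a median log2 difference of 1.19 at 7 weeks. Over all genes 10.7% were higher and 18.7% lower at 7 weeks, 3.52% and 7.88% at 3 weeks, and 17.5% and 19.6% at 7 against 3 weeks, which is the background of all the list counts given here. Without scaling, the count of Stat5 response genes was 6 higher and 2 lower at 7 weeks. The lists were chosen with earlier results of these data known, so their counts are no independent test of the pathway.

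Socs3, an inhibitor of Jak kinases induced by Stat3 and Stat5, had levels of 5.11, 4.90 and 4.79 on the 7 week arrays, 1.05, 0.98 and -0.94 on the 3 week arrays, and -3.11, -2.21 and -2.73 on the normal diet arrays. The 3 groups did not overlap. It rose by 7.62 ± 0.52 at 7 weeks and by 3.05 ± 0.52 at 3 weeks against normal diet (limma adjusted p = 0.000428 and 0.0134). Without normal diet replicates 1 and 2 its 7 week difference was 7.66 (adjusted p = 0.0541).

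Cish, the classical Stat5 target that blocks Stat5 docking, stood at 8.11, 6.75 and 7.03 at 7 weeks, 5.16, 5.69 and 4.25 at 3 weeks, and 3.63, 4.04 and 3.89 on normal diet. It rose by 3.44 ± 0.45 at 7 weeks (limma adjusted p = 0.00238), and the 3 week difference of 1.18 ± 0.45 did not pass (adjusted p = 0.122). Socs2 rose by 4.21 ± 0.58 (adjusted p = 0.0026) and Socs1 by 2.10 ± 0.44 (adjusted p = 0.0104) at 7 weeks. All 4 inhibitors were higher at 7 than at 3 weeks, by 4.57 for Socs3, 2.93 for Socs2, 2.34 for Socs1 and 2.26 for Cish.

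Erfe, the erythroblast hormone that lowers hepcidin and is a Stat5 target, stood at 4.03, 3.53 and 4.21 at 7 weeks, 3.91, 4.71 and 2.93 at 3 weeks, and -0.71, -0.78 and -0.58 on normal diet. It rose by 4.61 ± 0.43 at 7 weeks and by 4.54 ± 0.43 at 3 weeks (limma adjusted p = 0.00113 and 0.00794), and differed by 0.07 ± 0.43 between the times (adjusted p = 0.907). The D-type cyclin Ccnd2 rose by 3.55 at 7 weeks and by 2.03 at 3 weeks against normal diet. Bcl2l1, the Bcl-xL survival gene of the pathway, was 1.06 ± 0.48 at 7 weeks against normal diet and did not pass (adjusted p = 0.120), and its other probe went the other way, at -2.74.

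Among the 15 negative regulators tested, 4 were higher and 3 lower at 7 weeks, and 4 higher and 1 lower at 3 weeks, against normal diet. The 4 higher at 7 weeks were the Socs genes and Cish, which the Stat5 response list also holds, and the 3 lower were Ptpn11, Ptpn2 and Pias1, at -1.16, -1.10 and -0.99. With the percentile over detected probes, Ptpn11 (-0.80, adjusted p = 0.0595) and Pias1 (-0.63, adjusted p = 0.116) were no longer called, and Pias1 was not called with quantile normalization either (adjusted p = 0.0735). At 3 weeks the ubiquitin ligase Cbl and the phosphatase Ptprc rose by 1.97 and 1.74, and Ptprc, known as CD45, is also a general marker of white blood cells. Of 10 Stat3 response genes, 3 were higher and 0 lower at 7 weeks: Socs3, the growth factor gene Vegfa (3.95) and Fos (2.18). Vegfa was well above background on 3 of 3 arrays at 7 weeks, 2 of 3 at 3 weeks and 1 of 3 on normal diet.

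Of 7 other Jak and Stat genes, 1 was higher and 0 lower at 7 weeks and 1 higher and 0 lower at 3 weeks against normal diet. The kinase Tyk2 stood at -5.07, -4.67 and -4.28 at 7 weeks, -2.57, -1.85 and -2.06 at 3 weeks, and -3.86, -5.08 and -4.27 on normal diet. It was well above background on 0 of 3, 3 of 3 and 2 of 3 of these arrays, and was at least 2.52-fold lower at 7 than at 3 weeks. Stat4 was -2.74 ± 0.81 at 7 against 3 weeks, and well above background on 1 of 3 arrays at 7 weeks, 3 of 3 at 3 weeks and 2 of 3 on normal diet.

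Of 15 receptors that use Jak2 or pair with Epor, 3 were higher and 0 lower at 7 weeks and 2 higher and 0 lower at 3 weeks. The interferon gamma receptor chain Ifngr2 (4.24), the prolactin receptor Prlr (1.61) and the interleukin 6 receptor Il6ra (1.46) were those at 7 weeks, and Il6st (2.40), the signalling chain shared by that family, and Il6ra (2.04) those at 3 weeks. Il6ra at 7 weeks was not called with quantile normalization (1.36, adjusted p = 0.0596) or without scaling (0.66, adjusted p = 0.260), nor was Prlr without scaling (0.80, adjusted p = 0.0905). Il6st at 3 weeks was not called with quantile normalization (adjusted p = 0.0930) or without scaling (adjusted p = 0.0585). Tfr2, which associates with Epor in erythroblasts, was -1.03 ± 0.42 at 7 weeks and -1.26 ± 0.42 at 3 weeks and did not pass (limma adjusted p = 0.0909 and 0.0807). Kit, the stem cell factor receptor, was lower by 2.20 at 7 than at 3 weeks (limma adjusted p = 0.0347), and not called with quantile normalization (adjusted p = 0.0501) or the percentile over detected probes (adjusted p = 0.0514).

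Among 21 adaptors and downstream kinases tested, 1 was higher and 5 lower at 7 weeks and 0 higher and 3 lower at 3 weeks, against normal diet. Gab1, a docking protein, had levels of -4.57, -2.96 and -1.76 at 7 weeks, 0.64, 0.97 and 1.43 at 3 weeks, and 0.94, -0.12 and 0.43 on normal diet. It was not well above background on 7 week replicate 1, and it fell by 3.52 ± 0.63 at 7 weeks (limma adjusted p = 0.00612). Irs2, another docking protein, rose by 2.18 ± 0.38 (adjusted p = 0.00531). The mitogen-activated kinase Mapk3 fell by 1.70, and the adaptor Shc1 by 1.34 at 7 weeks and by 1.59 at 3 weeks. Grb2 (-1.91) and Plcg1 (-1.48) were lower at 3 weeks, and their other probes read -0.35 and -0.44. Without scaling the 3 week calls of Grb2 (adjusted p = 0.0533), Plcg1 (0.0617) and Shc1 (0.0737) were lost, and with the percentile over detected probes those of Plcg1 at 3 weeks (0.0985) and Shc1 at 7 weeks (0.0559).

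**Figure D5:**
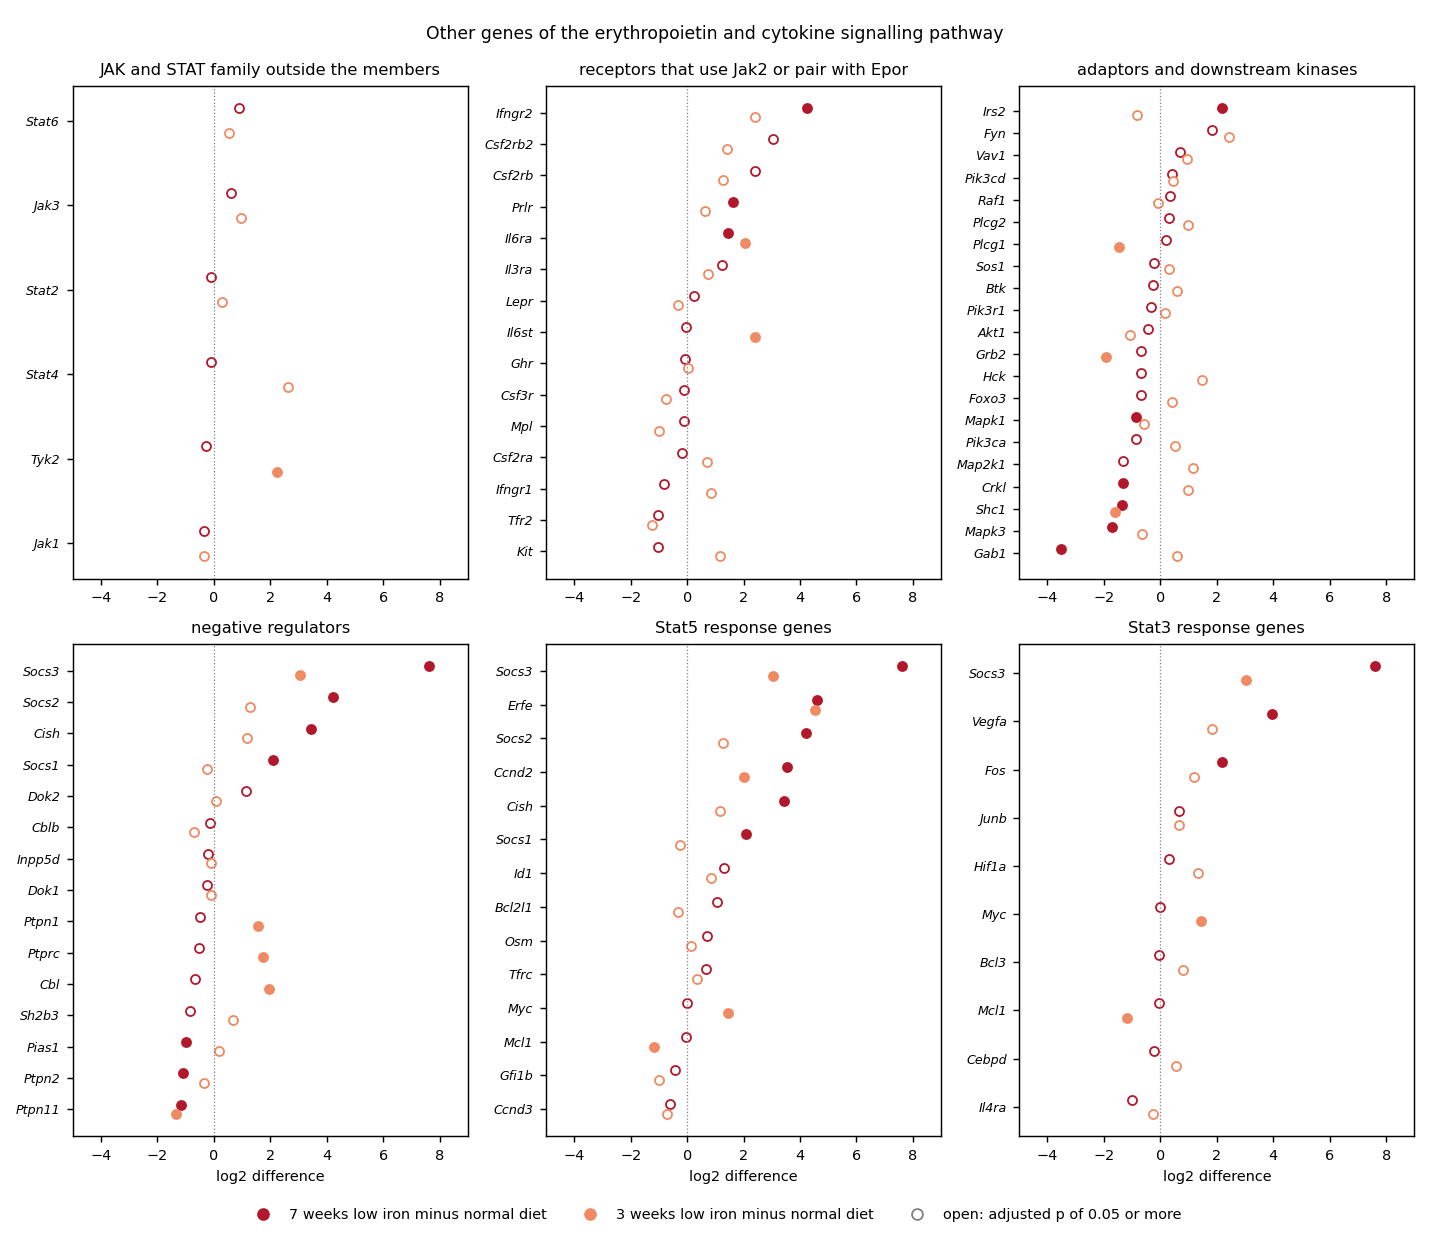
Log2 difference from normal diet (x axis) of tested genes of the 6 pathway lists (y axis), as far as they are reported here, for 7 weeks (dark) and 3 weeks (light) of low iron diet; filled points have an adjusted p under 0.05, and a gene in several lists appears in each. Socs3 (7.62), Socs2 (4.21) and Cish (3.44) lie far to the right at 7 weeks, and Gab1 (-3.52) farthest to the left.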

How the data were processed

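Expression was measured on 9 single-colour Agilent arrays. Per the labels' protocols, RNA was isolated, amplified to aminoallyl RNA and labelled with Cy3. Per the file headers, the deposited scanner files hold each spot's intensity from Agilent Feature Extraction 10.7.3.1, background-subtracted and detrended, with no scaling between arrays. The authors' deposited series table holds log2 values, which match the scanner values after subtraction of a probe's median across arrays (r of 0.997 to 0.999, slopes of 0.994 to 1, array medians of 0 except -0.019 for 7 week replicate 2); their normalization before centring is not given in the sources used here.

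The log2 intensity minus the log2 of the array's 75th percentile over non-control spots was averaged over a probe's spots, leaving out outlier spots. A probe entered the test if 1 or more groups had it well above background throughout (34480 probes; 984 without a usable spot on some array were left out), and the brightest probe stood for a gene. Accessions were named through RefSeq's GRCm38.p6 gene table (26413 probes, 20018 symbols). One model over the 9 arrays was fitted with limma 3.58.1 in R 4.3.3 (lmFit, eBayes), with two-sided p-values adjusted by Benjamini and Hochberg's method across 14504 genes, and tested on simulated data. The fold of a gene that no array of a group measured above background is a bound, set on each array at the dimmest detected signal or, if brighter, the gene's own signal.

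The members, the pathway and marker lists and the alternatives were chosen with earlier results of these data known. Named genes are the members, the 2 genes nearest to each in pattern, up to 3 called genes of each list and comparison by size of difference, and up to 2 uncalled; Socs1, Cish, Erfe, Ccnd2, Mapk3, Shc1, Tfr2 and other list genes named beside a count were added after their values were seen. Alternatives were quantile normalization, the percentile over probes detected on all 9 arrays, no scaling, normexp background (offset 50), no filter or a stricter one on dim probes, the mean over probes, the authors' table, 2-group fits, arrays left out and the replicate number as a block. The normexp alternative used the median signal, since the scanner files used here hold no mean signal column, and slide could not be a block because each slide holds 1 group. The number of arrays limits the precision. Some results on single genes of the pathway and marker lists are not reported here.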

Additional observations from a re-analysis of the deposited data

Results flagged for a closer look

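The effects of 3 and of 7 weeks of low iron diet differed for 3 of the 10 genes, by limma's test of the 7 week minus 3 week difference. Over all genes 37.2% were called in this comparison, so 3 of 10 is not above that share. Pim2 differed by -3.69 ± 0.79 (adjusted p = 0.00697), and all 3 of its 7 week arrays lay below all 3 of its 3 week arrays. Stat3 differed by 1.56 ± 0.35 (adjusted p = 0.00886) and Stat5b by 0.83 ± 0.25 (adjusted p = 0.0280), with all 7 week arrays above all 3 week arrays for both. Without scaling between arrays these values were -4.65 for Pim2, 0.60 for Stat3 and -0.13 for Stat5b, while the median of all genes was -1.09. Each time lay on its own slide and scan, so time and slide cannot be told apart.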

How the results depend on the processing

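Of the 10 genes, 2 were called at 3 weeks and 4 at 7 weeks against normal diet, and 3 at 7 against 3 weeks. At 3 weeks the count was 1 with no filter on dim probes, 4 with only these 2 groups fitted and 0 without normal diet replicates 1 and 2 together. With single arrays left out it ran from 0 to 4: 0 without normal diet replicate 1 or 2 or any one of the 3 week arrays, 1 without normal diet replicate 3 or 7 week replicate 3, and 4 without 7 week replicate 1 or 2. At 7 weeks it was 0 without normal diet replicates 1 and 2 together, and with single arrays left out ran from 0 (without normal diet replicate 1) to 7 (without 7 week replicate 1), with 2 without normal diet replicate 2 or 3. Between 7 and 3 weeks it was 6, all lower, without scaling, against 2 higher and 1 lower with it, 1 with the mean over probes, and 2 to 5 with single arrays left out (5 without 7 week replicate 1). In these comparisons Jak2 at 7 weeks was called in 18 of 20 alternatives, Stat5a in 17, Stat3 in 16 and Stat5b in 8; at 3 weeks Pim3 was called in 14 of 20 and Pim2 in 10 of 19; and at 7 against 3 weeks Pim2 in 19 of 19, Stat3 in 18 and Stat5b in 10 of 20. The cause of the losses was not tested.

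The scaling moved the median of all genes at 7 weeks against normal diet to -0.25 with quantile normalization, 0.10 with the percentile over detected probes and -1.07 without scaling, against -0.27 in the values reported; at 3 weeks the same scalings gave -0.02, 0.09 and -0.01, against -0.17, and at 7 against 3 weeks -0.25, -0.03 and -1.09, against -0.13. Over all genes, 1653 were called at 3 weeks, 4277 at 7 weeks and 5390 at 7 against 3 weeks. At 3 weeks the count was 966 without scaling, 4416 with 2 groups fitted, 0 without normal diet replicates 1 and 2 (limma), and 199 to 3503 with single arrays left out. At 7 weeks it was 7100 without scaling, 6939 with no filter, 2819 with 2 groups fitted, 1 without normal diet replicates 1 and 2, and 1739 to 5209 with single arrays left out; at 7 against 3 weeks the last range was 3543 to 6488.

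At 3 weeks Epor (-0.15 as reported) turned to 0.63 with quantile normalization, 0.11 with the percentile over detected probes and 0.0105 without scaling. Stat5b turned to 0.46, 0.26 and 0.16 with these, 0.0386 in the authors' table and 0.0769 without normal diet replicates 1 and 2, and ran from -0.052 to 0.0742 with single arrays left out. Stat3 turned to 0.15 and 0.0478 with the last 2 scalings, 1.07 with the mean over probes and 0.18 without normal diet replicates 1 and 2, and ran from -0.258 to 0.0337 with single arrays left out. At 7 weeks Lyn turned to -0.45 and Pim3 to -0.12 without scaling, and with single arrays left out Lyn ran from -0.36 to 1.24 and Pim2 from -1.63 to 0.21. Between 7 and 3 weeks Lyn turned to -0.29 and Stat5b, called as reported, to -0.13 without scaling, and with single arrays left out Lyn ran from -0.0291 to 1.57 and Pim1 from -1.45 to 0.44. Of these reversed values, none was itself called.

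The deviations of same-numbered arrays correlated across genes at -0.17 to 0.25 for 3 weeks and normal diet. The values were -0.13 to 0.16 for 7 weeks and normal diet, and 0.03 to 0.29 for 7 and 3 weeks. Differently numbered arrays were not compared, so whether the replicate numbers pair the samples was not tested. With the replicate number as a block, 2, 3 and 3 genes were called in these comparisons, and Stat5b at 7 weeks against normal diet was lost (adjusted p = 0.0519). The filter for probes detected on all 9 arrays left out Pim2 and Lyn, and the slide block was not run.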

Other observations

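Several pathway genes with over 1 probe had probes that went opposite ways, which were picked out after their values were seen and are given without a test. Mcl1, a survival gene of the Bcl2 family, was 1.15 at 7 against 3 weeks with its brighter probe and -1.35 with the other, and at 3 weeks against normal diet -1.19 and 0.25. The transferrin receptor Tfrc, which brings iron into erythroblasts, was 0.68 at 7 weeks against normal diet with its brighter probe, which did not pass, and -1.68 and -1.39 with its other probes. Il4ra was -1.01 and 1.99 in the same comparison. Of the 75 pathway genes tested, 23 had over 1 probe tested.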
